A study of Mus musculus with 3 samples.

Results

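Barcodes taken as the myotome and its committed myoblasts numbered 277 of the 6787 kept in libraries 1 to 4. This is a share of 4.08% (exact binomial 95% interval 3.62 to 4.58%), and the whole deposited matrix holds 9492 barcodes. A barcode tags the RNA of 1 droplet and is taken here as 1 cell. A barcode was called myogenic where the unique molecular identifiers (UMIs, each standing for 1 captured transcript) of Myog, Myod1, Myf5 and Myf6 summed to at least 2, with no UMI of the glial factor Sox10 and none of the endothelial cadherin Cdh5. Members were thus chosen by the measured UMIs of those 6 genes, whose levels are a description and carry no test. Kept barcodes had at least 1000 UMIs, at least 500 genes and at most 10% mitochondrial UMIs.

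Mouse embryos at E10.5, with 28 to 32 somite pairs, gave the AGM (the aorta-gonad-mesonephros tissue around the dorsal aorta), and the RNA of its single cells was read at the 3' ends of transcripts in 10x Genomics version 2 droplets. Tissue of several embryos was pooled before sorting into 3 populations, each deposited as 1 sample. They were T1-preHSCs (Ter119-CD31+VCad+CD41lowcKit+), endothelial cells (Ter119-CD31+VCad+CD41-cKit+) and the AGM niche, which was sorted only as live and Ter119-negative. The labels name no strain, mutation or treatment, and they tie none of the 8 barcode suffixes, called libraries 1 to 8, to a population. The matrix is therefore 1 sample, no p-value is given, and the intervals printed cover counting error only.

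Members were spread over libraries 1 to 4 as 89, 60, 54 and 74 barcodes, or 4.87, 3.64, 3.40 and 4.30% of the kept barcodes. In libraries 5 to 8 the factor rule was met by 3 of 2596 kept barcodes (0.116%, exact binomial 95% interval 0.0238 to 0.337%), which are not described further. The members held 2898915 UMIs in all, from 1644 to 40535 per barcode with a median of 8942, against a median of 7346 in the 6510 other barcodes of libraries 1 to 4. Of the members 12.6% were in the top 5% of doublet scores, against 4.65% of the other barcodes, and these barcodes were kept. Of the 54 barcode sequences that occurred in more than 1 library, 4 were those of members, and no sequence occurred in 2 members.

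Skeletal muscle of the trunk forms from the somites. Cells of the dermomyotome, the epithelial dorsal part of the somite, carry the paired-box factors Pax3 and Pax7. Cells that leave its edges switch on the basic helix-loop-helix factors Myf5, Myod1, Myog and Myf6. These factors commit cells to the muscle lineage and drive differentiation. Differentiating myocytes leave the cell cycle, assemble sarcomeres and later fuse into fibres, and the myotome is the first muscle layer they build.

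The myogenic factors bind E-boxes, 6-base motifs of the form CANNTG, beside sites for the MEF2 factors and for serum response factor (the CArG box). The 250 bases before the RefSeq gene start (GRCm38.p6, 5' to 3' on the gene's strand) are printed for 4 muscle genes to show how such letters are laid out. Acta1, Mylpf and Actc1 are among the 10 genes furthest above the other barcodes, and Chrna1, the acetylcholine receptor alpha subunit, is a classical target of these factors. Capitals mark the E-box with a GC core (CAGCTG), the E-box with a GG core (CAGGTG, which is CACCTG on the other strand), MEF2 sites and CArG boxes. A MEF2 site is here only C or T, then TA, 4 bases A or T, TA, and A or G. A CArG box is CC, 6 bases A or T, and GG.
Chrna1 (chr2:73580339-73580588, minus strand): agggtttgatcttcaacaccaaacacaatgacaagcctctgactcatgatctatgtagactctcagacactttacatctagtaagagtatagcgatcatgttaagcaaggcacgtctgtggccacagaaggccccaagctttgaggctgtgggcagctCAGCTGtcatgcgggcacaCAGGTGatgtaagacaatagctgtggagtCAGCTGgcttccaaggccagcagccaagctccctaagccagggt
Acta1 (chr8:123894776-123895025, minus strand): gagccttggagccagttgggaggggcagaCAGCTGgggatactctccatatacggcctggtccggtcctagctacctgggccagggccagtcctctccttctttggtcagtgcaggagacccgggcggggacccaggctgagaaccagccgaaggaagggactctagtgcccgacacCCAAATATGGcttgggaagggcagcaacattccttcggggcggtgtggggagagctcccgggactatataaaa
Mylpf (chr7:127211358-127211607, plus strand): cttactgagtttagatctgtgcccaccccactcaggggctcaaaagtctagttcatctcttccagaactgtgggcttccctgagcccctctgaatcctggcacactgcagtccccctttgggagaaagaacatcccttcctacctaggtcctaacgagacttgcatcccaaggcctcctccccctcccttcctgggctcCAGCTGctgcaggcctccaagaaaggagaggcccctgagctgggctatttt
Actc1 (chr2:114052876-114053125, minus strand): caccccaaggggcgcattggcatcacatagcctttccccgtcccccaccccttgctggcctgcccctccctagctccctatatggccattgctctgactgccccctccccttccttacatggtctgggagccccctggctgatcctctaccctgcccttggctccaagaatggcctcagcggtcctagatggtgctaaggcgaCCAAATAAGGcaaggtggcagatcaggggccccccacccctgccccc

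The Chrna1 window held CAGCTG at positions -92 and -44 and CAGGTG at -73, counted in bases from the gene start. Acta1 had CAGCTG at -221 and a CArG box at -73, Mylpf had CAGCTG at -51, and Actc1 had a CArG box at -47. On both strands, CAGCTG occurred in 22.8% of the 180 windows of genes called higher in the myogenic barcodes (118 of the 161 such genes had a window) and in 13.0% of all 32851 RefSeq windows of this length. CAGGTG or CACCTG occurred in 20.6% of the windows of the called genes and 17.2% of all windows. Any CANNTG, which includes both, occurred in 64.4% of the windows of the called genes and 66.2% of all windows. A MEF2 site was found in 6.11% of the windows of the called genes against 2.92% of all windows, and a CArG box in 4.44% against 1.47%. Some genes had several windows, which can overlap and repeat a site, as the MEF2 site of Arpp21 does. The 41 windows of called genes with CAGCTG came from 33 genes, and the 37 with CAGGTG or CACCTG from 31. The 11 with a MEF2 site came from 8 genes and the 8 with a CArG box from 8. Shares per gene were not computed over all windows. The called genes include the 4 factors of the rule, whose calls it bears on. A match is a run of letters in this window and not a measured binding site.

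**Figure D1:**
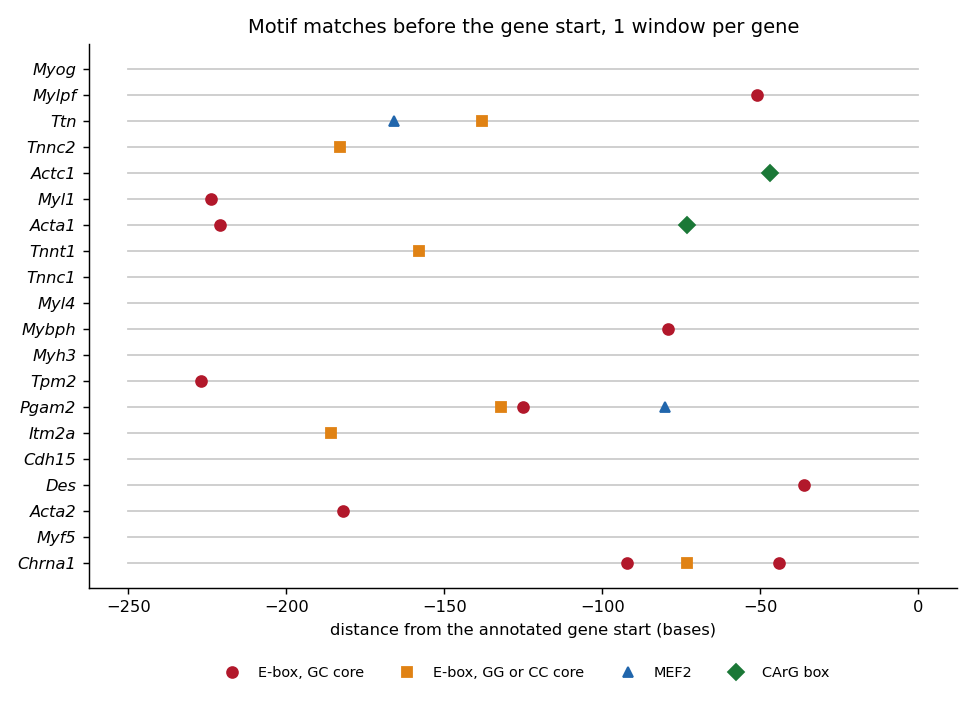
Matches of CAGCTG, of CAGGTG or its reverse complement, of MEF2 sites and of CArG boxes in the 250 bases before the gene start for 20 muscle genes with a single RefSeq start. The horizontal axis is the distance from the gene start in bases, each line is 1 gene and each symbol 1 match. Chrna1 has 3 matches between -92 and -44, and the Myog, Tnnc1, Myl4, Myh3, Cdh15 and Myf5 windows have none of these 4. The Myog window holds ctatatttat, which misses the MEF2 pattern used here only at its last base. Other forms of CANNTG are not drawn.

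Levels are given as counts per 1000000 UMIs (CPM), with all barcodes of a group summed and with an exact Poisson 95% interval. Myog (chr1:134289989-134292548), which drives differentiation, reached 2184 CPM in the myogenic barcodes (2130 to 2238), and libraries 1 to 4 gave 2063, 2099.6, 2787 and 2053 CPM. In the other barcodes it stood at 2.04 CPM, with 5.25, 0.594, 0.918 and 1.51 CPM by library. Every library of the myogenic barcodes lay above every library of the other barcodes, which the rule fixes. Myod1 (chr7:46376474-46379099), a determination factor, had 114 CPM (102 to 127) in the myogenic and 0.192 CPM in the other barcodes. Myf6 (chr10:107492853-107494737), which acts in differentiation, had 125 CPM (112 to 138) and 0.519 CPM. Its chromosomal neighbour Myf5 (chr10:107482908-107486134), the first of the 4 to appear in the mouse somite, had 55.2 CPM (47.0 to 64.4) and 0.769 CPM.

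Most members held more than 1 of the 4 factors. Myog had a UMI in 91.3% of the 277 members (exact binomial 95% interval 87.4 to 94.4%), Myf6 in 52.3% (46.3 to 58.4%), Myod1 in 41.5% (35.7 to 47.6%) and Myf5 in 35.7% (30.1 to 41.7%). With each barcode thinned to 3000 UMIs, which left out 14 shallower members, the shares were 79.1% for Myog, 26.6% for Myf6, 20.9% for Myod1 and 15.6% for Myf5. As a measure of free RNA, Myog had a UMI in 1 of 69 barcodes with at least 2 Cdh5 UMIs (1.45%, median depth 9470 UMIs) and in 3 of 195 with at least 2 Sox10 UMIs (1.54%, median depth 11895 UMIs). Myf5 had none in either, which allows shares of up to 4.35 and 1.54%. Of the sarcomere genes, Mylpf had a UMI in 8.70 and 7.18% of these Cdh5 and Sox10 barcodes. Actc1 had one in 1.45 and 5.13%, and Ttn and Acta1 each in 0 and 1.03%. Myog with Myf6 was the most frequent combination, in 47 members, followed by Myog without the others in 44, Myod1 with Myog and Myf6 in 42 and Myod1 with Myog in 39. All 4 factors were seen together in 22 members, and Myf5 without the others in 11.

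**Figure D2:**
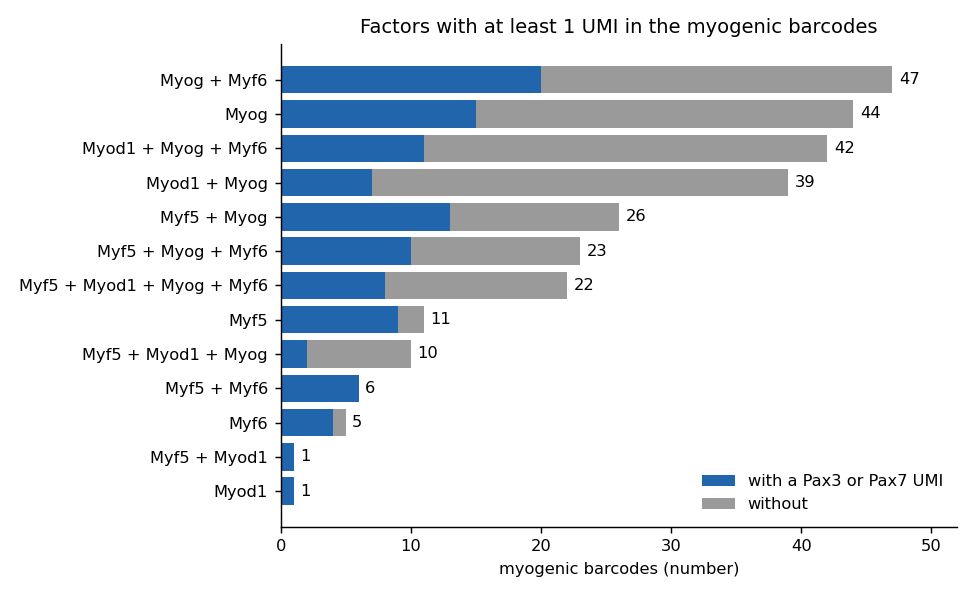
Number of myogenic barcodes (horizontal axis) with at least 1 UMI of each combination of the 4 factors (rows), split into barcodes with and without a UMI of Pax3 or Pax7. Combinations with Myod1 and Myog but not Myf5 have mostly barcodes without a Pax UMI, whereas 9 of the 11 barcodes with Myf5 alone have one.

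The combinations also differed in how often the progenitor factors were still seen. Pax3 or Pax7 had a UMI in 81.8% of the 11 barcodes with Myf5 alone and in all 6 with Myf5 and Myf6. It had one in 80% of the 5 with Myf6 alone and in the single barcodes with Myod1 alone and with Myf5 and Myod1, so the high shares were in the combinations without Myog. The share was 42.6% with Myog and Myf6, 26.2% with Myod1, Myog and Myf6, and 17.9% with Myod1 and Myog. Depth differed as well, with a median of 12633 UMIs with Myf5 alone, 13370 with Myf5 and Myf6 and 7150 with Myod1 and Myog, and its part in the shares was not tested. The median factor sum was 2 UMIs in the barcodes with Myf5 alone and 43.5 in those with all 4 factors, against 18 over all members, and the highest sum was 164.

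The threshold cut through a range of levels. Of the members, 43 had the lowest admitted sum of 2 UMIs, and 114 barcodes with a sum of 1 and no Sox10 or Cdh5 UMI were left out. Cardiac actin Actc1 stood at 263 CPM in the barcodes with a sum of 2 and 42.3 CPM in those with a sum of 1, the light chain Mylpf at 303 and 33.8 CPM, and titin at 118 and 26.3 CPM. The cell cycle inhibitor Cdkn1a had 57.0 and 44.2 CPM. No test goes with these values.

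Against all other barcodes of libraries 1 to 4, 161 of 8029 genes with at least 10 CPM in either group were called higher (2.01%) and 28 lower (0.349%), and the median log2 ratio over all of them was -0.09. A gene was called at a log2 ratio of at least 1 in size, taken after adding 10 CPM to both levels, with at least 50 CPM in the higher group and the same direction in each library that had at least 20 barcodes of both groups. Adding 10 CPM understates the ratio of weakly expressed genes. The 10 highest were Myog, Mylpf, Ttn, Tnnc2, Actc1, Cdkn1a, Myl1, Acta1, Tnnt2 and Tnnt1, so that 8 of them encode sarcomere proteins. The 161 include the 4 factors that chose the members, Myog among them, and the rule fixes their direction. The lists below were drawn up with earlier results of these data known and are described by their counts alone.

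Genes of the thin filament were nearly all called. Of its 16 members 14 were measured above 10 CPM and 13 were called higher, with a median log2 ratio of 4.38. Actc1, the actin of heart and of embryonic skeletal muscle, had 2198, 2499, 2838 and 2114 CPM in the myogenic barcodes of libraries 1 to 4, against 21.5, 30.6, 19.6 and 35.9 CPM in the other barcodes (log2 ratio 5.96). Acta1, the actin of mature skeletal muscle, had 501, 647, 590 and 665 CPM, against 6.70, 1.63, 2.85 and 2.75 CPM (5.50). The 4 libraries of the 2 groups did not overlap for either actin. A call already asks for the same direction in each library. How many of all genes show no overlap was not computed, here or below. Troponin genes of both muscle fibre programmes were present. Those of slow muscle, Tnni1 (712 against 17.0 CPM), Tnnt1 (609 against 9.06 CPM) and Tnnc1 (371 against 1.85 CPM), were called higher. So were those of fast muscle, Tnnc2 (795 against 1.19 CPM), Tnnt3 (96.6 against 3.14 CPM) and Tnni2 (76.2 against 3.87 CPM), and Tnnt2, known from heart and embryonic muscle (497 against 1.73 CPM). The tropomyosin Tpm2, which covers the myosin sites on actin, had 1384 CPM against 75.7 CPM, and Tpm1 was called as well at a log2 ratio of 2.91.

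Of 14 thick filament genes 9 were measured and 6 were called higher, with a median log2 ratio of 4.16. Mylpf, the regulatory light chain of fast fibres, had 1856, 1967, 1934 and 1552 CPM against 14.2, 8.77, 11.2 and 8.52 CPM (log2 ratio 6.46). The alkali light chains Myl1 and Myl4 had 577 and 347 CPM against 1.02 and 2.21 CPM. For Mylpf the libraries of the groups did not overlap. Embryonic myosin heavy chain Myh3 had 291, 206, 129 and 106 CPM by library, against 1.37, 1.04, 0.367 and 1.11 CPM. The slow heavy chain Myh7 and the perinatal chain Myh8 had 11.7 and 9.66 CPM and were under the level that a call asks for. Mybph, a myosin binding protein, had 199 CPM against 0.577 CPM.

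Of 24 genes of titin, the Z-disc and sarcomere assembly, 22 were measured and 10 called higher (median log2 ratio 2.04). Titin, the giant spring protein of the sarcomere, had 970, 1016, 895 and 847 CPM against 4.85, 2.75, 0.918 and 1.57 CPM (log2 ratio 6.23), and its libraries did not overlap. Ttn had a UMI in 68.6% of members (58.9% when thinned) against 0.676% of the other barcodes and 0 of the 69 Cdh5 barcodes. Desmin, the muscle intermediate filament, had 473 CPM against 28.9 CPM, and the small heat shock proteins Cryab and Hspb1 had 215 and 164 CPM against 3.08 and 7.16 CPM. Nexn, Synpo2l, Klhl41, Cap2, Palld and Enah made up the rest of the list that was called. Actn2, the alpha-actinin of the Z-disc, had 27.3 CPM against 0.519 CPM and was under the level that a call asks for.

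**Figure D3:**
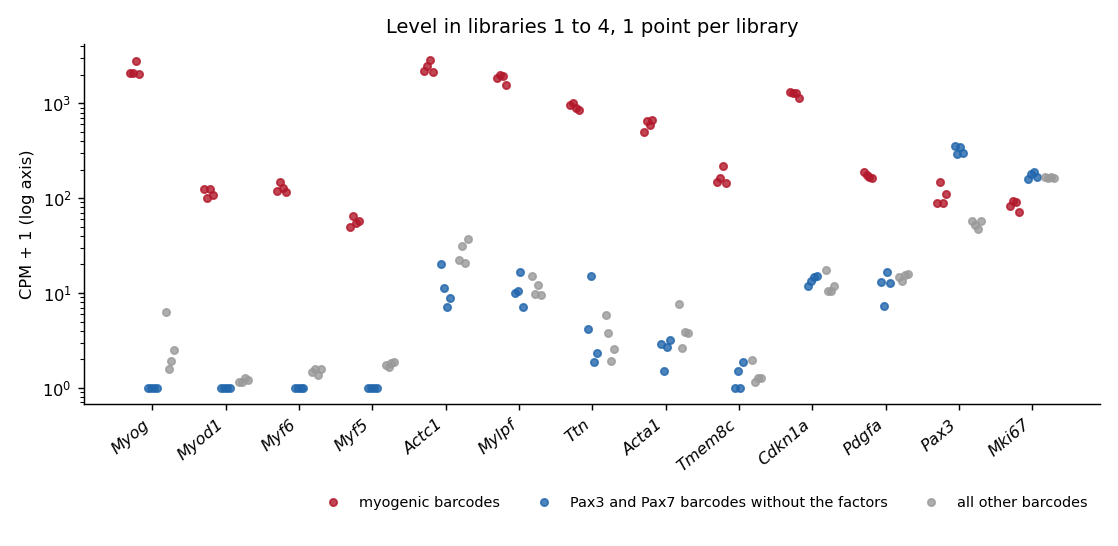
Level of 13 genes in libraries 1 to 4, 1 point per library, on a log axis of CPM plus 1, for the myogenic barcodes, the Pax3 and Pax7 barcodes without the 4 factors, and all other barcodes. The sarcomere genes and Cdkn1a lie above both other groups in every library, Pax3 lies below the Pax barcodes, and Mki67 lies below both.

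The genes that make a muscle cell excitable were mostly detected below the level of a call. None of the 8 genes of the acetylcholine receptor and its synapse was called, although the 5 measured had a median log2 ratio of 1.96. The embryonic gamma subunit Chrng stood at 49.0 CPM against 0.269 CPM, just under the 50 CPM a call asks for, Chrnb1 at 38.3 against 0.577 CPM and Chrna1 at 30.7 against 0.481 CPM. Chrna1 had a UMI in 18.4% of members (7.22% when thinned) and in 0.353% of the other barcodes. Musk, the kinase that organises the synapse, had 1.03 CPM against 0.0192 CPM.
Of 16 genes of calcium handling 10 were measured and 3 called higher. These were the calcium pump Atp2a1 (58.6 against 0.404 CPM), its small inhibitor Sln (58.3 against 0.173 CPM) and Stac3, which couples the calcium channel to its release (54.2 against 1.02 CPM). Sln differed most between libraries, with 98.4, 60.2, 49.4 and 23.4 CPM in the myogenic barcodes. The release channel Ryr1 had 27.9 CPM against 1.52 CPM, and the voltage sensor Cacna1s 2.07 CPM against 0.135 CPM.

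Both membrane proteins that fuse myoblasts were called higher. Myomaker, listed in the file under its older symbol Tmem8c, had 146, 160, 219 and 145 CPM against 0.969, 0.149, 0.275 and 0.262 CPM (log2 ratio 4.03). Myomerger, listed as Gm7325, had 195, 251, 311 and 171 CPM against 0.485, 0.149, 0.0918 and 0.131 CPM (4.48). The libraries of the groups did not overlap for either gene. Tmem8c had a UMI in 50.2% of members (35.4% when thinned) and in 0.184% of the other barcodes. M-cadherin Cdh15, an adhesion molecule of myoblasts, had 169 CPM against 3.87 CPM, and the adhesion molecule Ncam1 249 CPM against 95.7 CPM. That made 4 genes of this list called higher, of 11 measured and 17 listed. Vcam1, a partner in fusion of later myoblasts, had 0.690 CPM against 2.77 CPM. Of the 18 genes of the dystrophin complex, laminins and integrins, 11 were measured and 2 called higher. These were dystroglycan Dag1 (123 against 45.0 CPM) and the laminin receptor subunit Itga6 (74.5 against 20.1 CPM). Itga7, the laminin receptor subunit of mature muscle, had no UMI among 2898915.

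Of 24 partners of the factors 19 were measured, and 7 were called higher and none lower. Mef2c, which acts with the myogenic factors on muscle promoters, had 486, 471, 453 and 367 CPM against 29.5, 29.4, 31.3 and 22.2 CPM (log2 ratio 3.57), and Mef2a had 133 CPM against 25.4 CPM. The RNA-binding protein Rbm24 had 94.9 CPM against 2.52 CPM, the methyltransferase Smyd1 62.4 against 0.750 CPM, Ankrd2 61.7 against 0.212 CPM and Vgll3, a cofactor of TEAD factors, 53.5 against 0.789 CPM. Hes6, known to promote myogenic differentiation, had 275 CPM against 125 CPM. The E-proteins Tcf3, Tcf4 and Tcf12, with which the factors pair on DNA, were not called, at 122, 151 and 157 CPM against 140, 137 and 145 CPM. Nor were Id1 and Id3, which hold E-proteins away from DNA, at 112 and 607 CPM against 200 and 567 CPM.

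Among the dermomyotome and progenitor factors, Pax3 had 107 CPM against 53.0 CPM and Meox1, a somite homeobox factor, 169 against 129 CPM, and neither was called. Lbx1, which marks the precursors that migrate to the limb, had no UMI among the members, which allows up to 1.03 CPM, against 1.79 CPM in the other barcodes. Its partner in migration, the receptor Met, had 4.83 CPM against 2.87 CPM.

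The cell cycle lists showed high inhibitors beside cycling genes that did not reach a call. Cdkn1a, the inhibitor p21 that accompanies myocyte cycle exit, had 1301, 1284, 1299 and 1148 CPM against 16.6, 9.58, 9.55 and 10.9 CPM (log2 ratio 5.86). It had a UMI in 82.3% of members (72.2% when thinned), 5.27% of the other barcodes and 5.80% of the Cdh5 barcodes. The inhibitor p57, Cdkn1c, had 2636, 1742, 1724 and 1289 CPM against 251, 206, 156 and 146 CPM (3.24), and in both groups library 1 was highest and library 4 lowest. Cyclin D3, which rises in differentiating muscle, had 418 CPM against 199 CPM, Gadd45g 388 against 158 CPM, and cyclin D1 was called lower at 75.2 CPM against 193 CPM. No gene of the 20 of S phase or of the 20 of G2 and M phase was called, with medians of -0.51 and -0.62. The proliferation marker Mki67 had a UMI in 37.5% of members (16.3% when thinned) and in 54.5% of the other barcodes (34.0% when thinned).

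Among the signals the myotome is known for, 15 of 30 ligands were measured, and 2 were called higher and 1 lower. Pdgfa, which acts on the neighbouring sclerotome, had 186, 176, 165 and 164 CPM against 13.8, 12.3, 14.5 and 14.9 CPM (log2 ratio 2.94). Igf2, an imprinted growth factor, had 1171 CPM against 524 CPM. The chemokine Cxcl12 was the gene called lower, with 35.5 CPM against 84.7 CPM. Fgf6, a growth factor made by muscle, stood at 36.2 CPM against 0.0769 CPM and myostatin, Mstn, which restrains muscle growth, at 30.01 CPM against 0.520 to 1.44 CPM by library, both under the level that a call asks for. Of 30 receptors and feedback genes 21 were measured and none was called. Of 14 imprinted genes in the file 4 were called higher, namely Cdkn1c, Igf2, its neighbour H19 (2011 against 868 CPM) and Ndn (362 against 139 CPM). Of 14 metabolic genes 6 were measured, and the glycolytic enzymes Pgam2 (166 against 0.962 CPM) and Eno3 (476 against 97.5 CPM) were the 2 called. Muscle creatine kinase Ckm had 5.86 CPM against 0.0385 CPM.

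**Figure D4:**
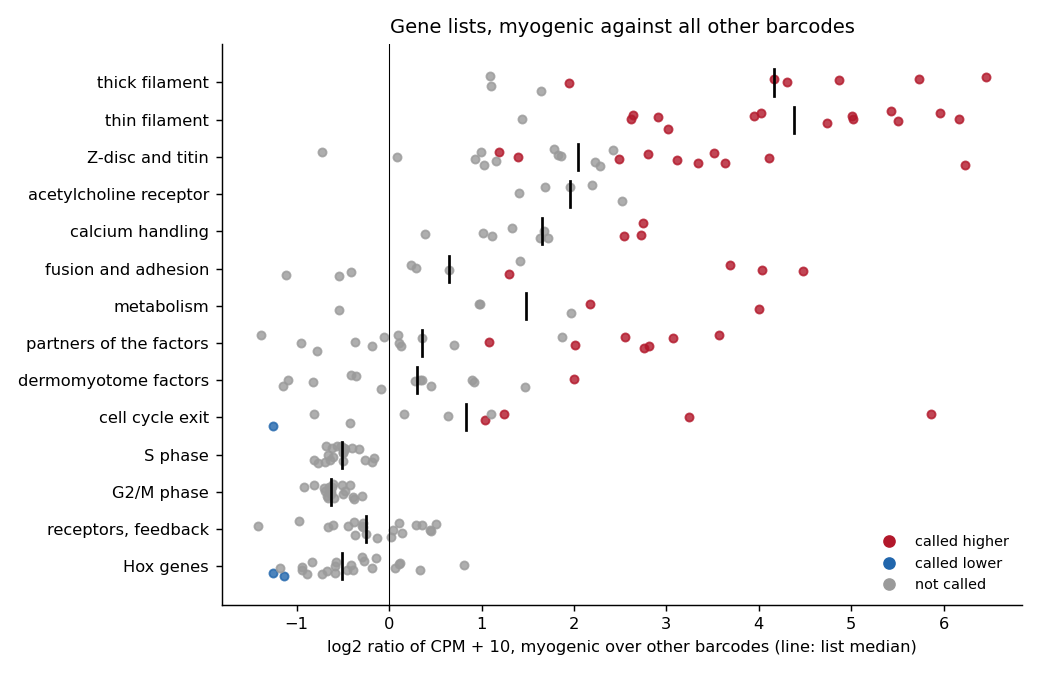
Log2 ratio (horizontal axis, after adding 10 CPM) of each measured gene of 14 lists, myogenic over all other barcodes, with a vertical line at the list median. Red points were called higher, blue lower and grey not called. The filament and Z-disc lists lie to the right with medians of 4.16, 4.38 and 2.04, and the S and G2/M phase lists lie to the left of 0 without a call.

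Among the 28 genes called lower in the members, the 10 lowest were the embryonic globins Hbb-y, Hbb-bh1 and Hba-x, then Sfrp2, Lix1, Pantr1, Crabp1, Hes5, Col3a1 and Fabp7. Hbb-y had 0, 13.4, 0 and 2.13 CPM in the myogenic barcodes and 280, 473, 0.734 and 605 CPM in the other barcodes. The other barcodes of library 3 thus held far less globin RNA than those of the other 3 libraries. The log2 ratio of Hbb-y was -4.81 with library 3 and -5.07 without it. Crabp1, a retinoic acid binding protein, had 205 CPM against 682 CPM, and Hes5, a Notch target of neural progenitors, 12.8 against 58.5 CPM. Of 39 Hox genes 24 were measured, and Hoxb2 and Hoxc10 were the 2 called lower, at 21.7 and 30.01 CPM against 65.7 and 77.9 CPM. Scaled by trimmed means of M values (TMM) instead of total UMIs, the myogenic levels were multiplied by 1.08 and the median log2 ratio was -0.0048 over 8114 genes.

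Markers of other cell types stayed low, with 2 exceptions. The 8 heart muscle markers summed to 15.5 CPM (12.8 to 21.7 by library) against 16.7 CPM (15.7 to 18.7), and Nkx2-5, Tbx5, Nppa and Hcn4 had no UMI in the members. The 8 smooth muscle markers summed to 1035 CPM (874 to 1265) against 107 CPM (85.2 to 135). This sum rested on alpha smooth muscle actin Acta2 (847 against 62.7 CPM) and Tagln (152 against 22.7 CPM), both also made by embryonic skeletal muscle, while Myh11, Cnn1 and Myocd had 0.345, 0.690 and 2.07 CPM. The 8 neural markers summed to 922 CPM (721 to 1054) against 637 CPM (588 to 681), of which nestin, an intermediate filament also found in myoblasts, gave 506 CPM against 73.6 CPM. Tubb3 stood at 250.3 CPM against 254 CPM, Stmn2 at 120.0 against 177 CPM and Sox2 at 6.21 against 31.1 CPM. Endothelial markers summed to 27.3 CPM (12.9 to 31.3) against 107 CPM, with 2 of 8 at 0, one of them Cdh5 by the rule. Blood markers summed to 5.86 CPM (2.15 to 18.4) against 719.7 CPM, with 5 of 8 at 0. Sclerotome, neural crest, lateral plate and epithelial markers summed to 66.9, 45.9, 50.4 and 35.2 CPM against 156, 144, 173 and 109.7 CPM. Sox10, a marker of the neural crest list, has no UMI in the members by the rule. The part of cells caught together in 1 droplet in these sums was not tested.

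The second comparison set the members beside barcodes that carried Pax3 or Pax7 without any of the 4 factors. There were 673 such barcodes (at least 2 Pax3 and Pax7 UMIs together), with a median of 9462 UMIs. Against them 180 of 7900 genes were called higher (2.28%) and 34 lower (0.43%), with a median log2 ratio of -0.06 over all genes. The 180 include the 4 factors, which the rules of the groups set apart. The sarcomere lists gave the same counts as before, with 13 thin filament, 6 thick filament and 10 Z-disc genes called higher. Actc1 had 19.1, 10.4, 6.04 and 7.86 CPM in the Pax barcodes of libraries 1 to 4, which put its log2 ratio at 6.82, and Acta2 had 6.63 CPM there (5.69). Mef2c stood at 439 CPM in the members and 14.3 CPM in the Pax barcodes. Beside Igf2 (1171 against 363 CPM) and H19 (2011 against 686 CPM), the imprinted genes Meg3, Nnat and the receptor Igf2r were called in this comparison, 7 in all.

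Pax3 itself, which chose the Pax barcodes, had 87.2, 149, 88.0 and 108 CPM in the members against 357, 291, 342 and 300 CPM in the Pax barcodes. The rule for the Pax barcodes fixes this direction. Genes known from the dorsal neural tube, neural crest or neural progenitors, where Pax3 and Pax7 are also made, were among the 10 lowest. Tfap2b had 3.10 CPM in the members against 70.6 CPM, the roof-side factor Msx3 3.79 against 59.8 CPM, and the neural stem cell factor Sox2 6.21 against 63.3 CPM. Crabp2 (246 against 769 CPM) and cyclin D1 (75.2 against 265 CPM) were among the 10 as well, and cyclin D2 (415 against 912 CPM) and Top2a (192 against 417 CPM) were called lower.

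A closer reference was made of the 328 Pax barcodes that had no Sox2, Sox10 or Cdh5 UMI and at least 1 UMI of a short set of somite genes, among them Meox1, Eya1 and Tcf15, with a median of 9262.5 UMIs. Against them 176 of 7869 genes were called higher (2.24%) and 19 lower (0.241%). The 4 factors are again among the 176 by the rules of the groups. Of the 34 genes lower against all Pax barcodes 9 were also lower here, and of the 180 higher 160 were also higher. The same 13 thin filament, 6 thick filament and 10 Z-disc genes were called higher. Meox1 stood at 169 CPM in the members and 316 CPM in the somite Pax barcodes without a call. Of the 7 imprinted genes called against all Pax barcodes, Cdkn1c, Ndn and Igf2r were called here, while Igf2 (log2 ratio 0.83), H19 (0.78), Nnat (0.72) and Meg3 (0.36) were not. Nor were cyclin D1 (-0.68), cyclin D2 (-0.81) and Top2a (-0.90), and no gene of the S or G2/M phase lists was called. The 19 lower genes were picked out after their values were seen. They included Wnt16, a secreted signal (31.7 against 173 CPM), Pax3 by the rule (107 against 353 CPM), Mdfi, an inhibitor that binds the myogenic factors (30.01 against 72.6 CPM), the mesenchymal factor Prrx1 and the replication-linked genes Hist1h1a, Hist1h1b, Hist1h2ae and Tk1. Lbx1 had 18.0 CPM and Met 16.5 CPM in the somite Pax barcodes. The neural genes Sox2, Hes5, Fabp7, Pantr1 and Msx3 were not lower in the members against this reference, with log2 ratios of 0.70, 0.61, 0.61, 0.38 and 0.014. For Sox2 the rule of this reference fixes that. Of the 8 neural markers, nestin and Tubb3 were called higher in the members against this reference and none lower. The 8 summed to 922 CPM in the members and 199.5 CPM in the somite Pax barcodes. The part of cells caught together in a droplet was not tested.

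Among the members, 107 still had a UMI of Pax3 or Pax7 and 170 had none. The Pax-positive members were deeper, with a median of 11492 UMIs against 7783, and 15.9% of them against 10.6% were in the top 5% of doublet scores. A deeper barcode is more likely to show a UMI, and the part of depth in the split was not tested, so the values are given with barcodes thinned to 3000 UMIs as well. Directions were checked in libraries 1, 2 and 4, since library 3 had only 19 Pax-positive members. Of 7863 genes 41 were called higher (0.521%) and 129 lower (1.64%), with a median log2 ratio of 0.06. Without library 2 the genes called higher were 22, and with TMM scaling there were 20 higher and 142 lower. With the same split on thinned barcodes there were 108 higher, 32 of them shared, and 171 lower, 109 of them shared.

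The differentiation genes were lower in the Pax-positive members. Myog had 978 CPM in the Pax-positive and 3320 CPM in the Pax-negative members (log2 ratio -1.75), Myod1 52.6 and 172 CPM (-1.54) and Myf6 76.8 and 169.5 CPM (-1.05). Myf5 was not called, at 56.9 and 53.6 CPM (0.07). These factors chose the members by a number of UMIs, which a deeper barcode reaches at a lower CPM. The rule thus bears on their values, and its part was not tested. The thinned values keep the members and the split as chosen before thinning. On thinned barcodes Myog had a median of 1 UMI in the Pax-positive and 10 UMIs in the Pax-negative members. Actc1 had 837, 567, 1066 and 880.3 CPM in the Pax-positive members of libraries 1 to 4 and 3276, 4607, 4013 and 3597 CPM in the Pax-negative ones (log2 ratio -2.18). The 2 ranges did not overlap, and the thinned medians were 0 and 8 UMIs. Acta1 showed the largest difference among the actins, with 142 CPM against 1029 CPM (-2.77).

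The lists followed. Of 15 thin filament genes measured 12 were lower (median log2 ratio -1.94), of 11 thick filament genes 6 (-1.18) and of 22 Z-disc and titin genes 11 (-1.49). The fusion genes Tmem8c (64.0 against 251 CPM) and Gm7325 (85.3 against 342 CPM) and M-cadherin Cdh15 (81.8 against 252 CPM) were lower, as were Mef2c (178 against 685 CPM), Sln (8.53 against 105 CPM), Chrng (19.9 against 76.4 CPM) and Fgf6 (7.11 against 63.7 CPM). So were the inhibitors Cdkn1a (638 against 1822 CPM) and Cdkn1c (994 against 2692 CPM). Cdkn1a had a UMI in 51.9% of thinned Pax-positive and 86.0% of thinned Pax-negative members. The smooth muscle actin Acta2 (282 against 1379.7 CPM) and nestin (250.3 against 746 CPM) moved with these genes.

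Of 13 measured dermomyotome and progenitor factors 2 were called higher in the Pax-positive members, Meox1 and Pax3, and Pax3 made the split. Meox1 had 276, 263, 248 and 253 CPM in the Pax-positive members and 90.2, 69.9, 89.3 and 77.3 CPM in the Pax-negative ones (log2 ratio 1.55), with no overlap. Id2, which keeps E-proteins from DNA, had 226 CPM against 77.1 CPM and Crabp2 360.5 against 139 CPM. Of the 20 G2 and M phase genes 11 were called higher, among them Cenpf (295 against 113 CPM), Mki67 (116 against 49.6 CPM) and Top2a (263 against 126 CPM), and the list had a median of 1.03. Where the rule and the split were both applied to thinned counts, 29 Pax-positive and 164 Pax-negative members were left. Mki67 then had a log2 ratio of -0.073, and too few barcodes were left for any gene to be called. With the split kept and each barcode thinned, Mki67 had 1.35. Of the 20 S phase genes 1, Dtl, was called higher (134 against 57.0 CPM). Mki67 had a UMI in 26.4% of the thinned Pax-positive and 9.55% of the thinned Pax-negative members, and in 38.8% of the thinned Pax barcodes without the factors. Chosen after their values were seen were Wnt16 (54.0 against 10.7 CPM), the carbonic anhydrase Car14 (95.3 against 21.4 CPM) and the semaphorin receptor Nrp2 (104 against 30.2 CPM).

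**Figure D5:**
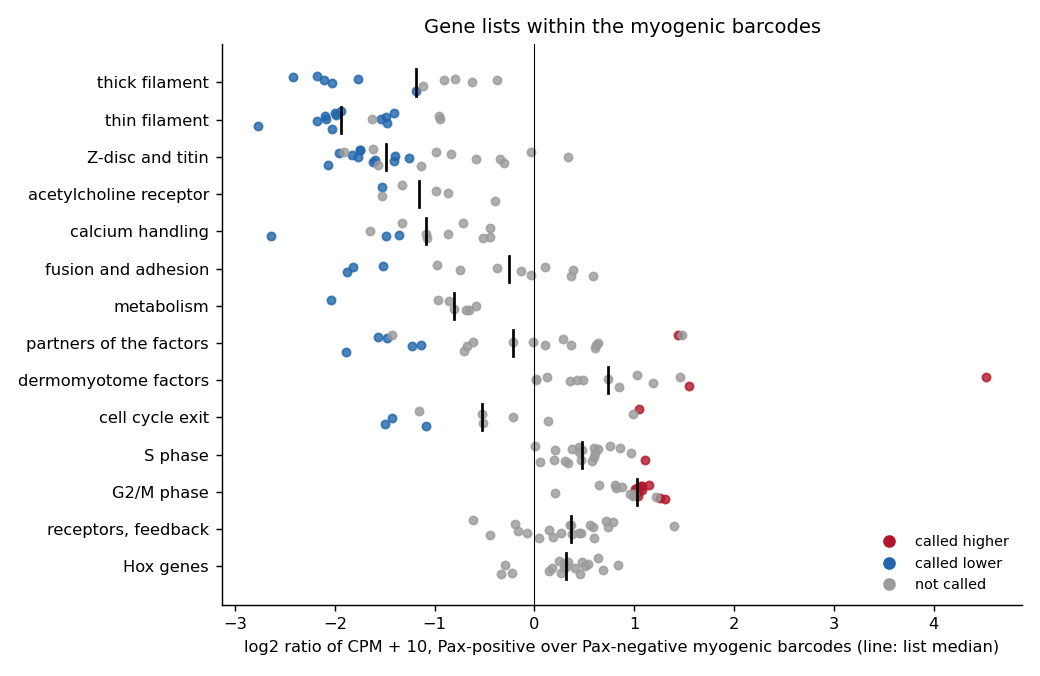
Log2 ratio (horizontal axis, after adding 10 CPM) of each measured gene of 14 lists, Pax-positive over Pax-negative myogenic barcodes, with a vertical line at the list median. The filament lists lie left of 0 with medians of -1.18 and -1.94 and the G2/M phase list right of it at 1.03, and the point beyond 4 is Pax3, which made the split.

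A split by Myog gave 253 members with a UMI and 24 without, and no library held 20 barcodes of both, so none of 8109 genes could be called in either direction (0%). The 253 had a median of 8888 UMIs, against 12328 in the 24. Actc1 stood at 2577 CPM in the Myog-positive and 25.5 CPM in the Myog-negative members, Cdkn1a at 1372 and 54.7 CPM, and Mef2c at 485 and 0 CPM of 274220 UMIs. Myf5 had 46.9 and 135 CPM, Pax3 93.3 and 237 CPM, and Meox1 158 and 270.2 CPM. A member without Myog had to hold at least 2 UMIs of Myf5, Myod1 and Myf6 together, so the rule bears on the Myf5 values. None of these differences is a call. Neural genes were also present in them, with Tubb3 at 238 and 368 CPM and Elavl3 at 30.9 and 80.2 CPM, and the part of other cells in the 24 barcodes was not tested. The thick filament list summed to 3582 and 40.1 CPM and the thin filament list to 10894 and 1517 CPM. The name of the members rests on the rule, and the commitment of the 24 to muscle was not tested.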

How the data were processed

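The authors deposited raw UMI counts per gene and barcode in 1 matrix of 27998 genes and 9492 barcodes (78653331 UMIs). Names of genes and barcodes, which the authors deposited in separate lists (unit other), hold no measurement. Cell Ranger and mm10 are named, without a version, per the submitters' processing notes. Whether counting used strand is not stated in them, so genes that overlap an antisense gene, such as Actc1 and Ttn, could include its reads. Per the labels, doublets were held below 5% by loading, and 10000 barcodes were stated across all conditions.

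From these counts, barcodes were selected by the rule, UMIs were summed per group and scaled to CPM, and ratios were taken as log2 of CPM plus 10. No test was run, because no label maps barcodes to samples. Doublet scores came from 2 simulated pairs per barcode, 30 neighbours, 30 principal components and 2000 variable genes (seed 1). They removed nothing in the values reported. Intervals are exact Poisson (CPM) or Clopper-Pearson (shares) at 95%, and a count of 0 allows up to 3 counts. The 27 lists held 413 genes, 1 of which is not in the gene names. Members and lists were chosen with earlier results of these data known. Named genes were the 4 factors, the 10 highest and 10 lowest called genes of the first 2 comparisons (names starting with mt-, Rpl, Rps or Gm and sex-linked genes left out), the top 5 of each list, called list members and markers, 1 of which is not reported here. Gene coordinates are from GENCODE M21 (GRCm38) and promoters from RefSeq (GRCm38.p6). Alternatives changed the factor threshold, barcode filter, doublets, depth, pseudocount, level, library weight, scaling and references. Python 3.11.15, numpy 2.4.6, scipy 1.17.1, pandas 2.3.3, scikit-learn 1.9.0 and matplotlib 3.10.9 were used.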

Additional observations from a re-analysis of the deposited data

Results flagged for a closer look

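Of 33 values checked over the 4 libraries, 4 had 1 library far from the other 3, by a gap wider than Dixon's 95% limit, which chance passes in about 1 of 20 groups. Myog stood at 2787 CPM in the myogenic barcodes of library 3, against 2063, 2099.6 and 2053 CPM in the others. Cdkn1a stood at 1148 CPM in library 4, against 1301, 1284 and 1299 CPM. Tnnt2 stood at 390.2 CPM in library 4, against 551, 533 and 560.4 CPM. Hbb-y stood at 13.4 CPM in library 2, against 0, 0 and 2.13 CPM. For Cdkn1a and Tnnt2, both checked because they are among the highest called genes, each library lay above every library of the other barcodes. For Myog the rule fixes this.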

How the results depend on the processing

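The comparisons rest on 1 pooled sample, so libraries are the only replication and may be technical. Of the named-gene values under all alternatives, 1247 kept their call and 33 lost it against the other barcodes, 1374 and 60 against the Pax barcodes, and 1183 and 222 in the Pax split. These genes were the most extreme calls and the called list members of the main settings, and not a sample of all genes. Factors of the rule are among them, as is Pax3 where it chose the groups, and the rules bear on their direction. The number of myogenic barcodes was 391 at a factor sum of 1, 234 at 3, 114 with Myf5 and Myod1 only, 242 without the top doublet scores and 193 thinned to 3000 UMIs. Against the other barcodes, genes higher numbered 243 thinned (158 shared with the 161) and 272 at a level of 20 CPM, and 160 to 169 with 1 library left out. Genes lower numbered 44 with Myf5 and Myod1 only, 47 without the top doublet scores, 115 thinned and 74 at 20 CPM, and 25 to 36 with 1 library left out. Against the Pax barcodes, genes higher numbered 306 at 20 CPM and 175 to 187 with 1 library left out. Genes lower numbered 20 at a sum of 1, 54 at 3, 143 thinned, 52 with a pseudocount of 1 CPM, 64 at 20 CPM, 18 with Sox2, Sox10 and Cdh5 at 0 and 19 with a somite gene as well, and 32 to 39 with 1 library left out. Sox2 turned to 0.70 against both narrower references, the first of which has no Sox2 UMI by its rule. Msx3 (0.014), Pantr1 (0.38), Hes5 (0.61) and Fabp7 (0.61) turned against the somite reference.

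The Myog split gave 133 higher and 4 lower at a factor sum of 1 and 0 under the others run, with 1 library left out too, since no library then had 20 barcodes of both; equal library weights were not run for it. The alternatives of the Pax split were added after the data were seen. Its genes higher numbered 11 at a sum of 1, 62 without the top doublet scores, 66 with a pseudocount of 1 CPM, 69 at 20 CPM, 20 with TMM, 108 on thinned barcodes with the same split, and 22 to 55 with 1 library left out. Genes lower numbered 102 to 152 with 1 library left out. With Myf5 and Myod1 only (37 and 77 barcodes) and with the rule and split on thinned counts (29 and 164 barcodes) too few barcodes were left and 0 genes were called in either direction. Mki67 turned to -0.073 with the rule and split on thinned counts. No paired analysis was possible because no test was run and the labels give no replicate numbers; the call itself asks for the same direction within each library.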
